A study of Homo sapiens with 38 samples.

Results

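The lowest dose of fumed silica nanoparticles (NPs), 0.1 μg/cm2 for 24 h, was compared with control cells on 8 of the 38 single-dye microarrays of the series, 4 of exposed cells and 4 of controls hybridised on the same 3 slides. All cells were A549, an established human line derived from a lung adenocarcinoma and widely used as a model of the alveolar epithelium, and both groups were kept in serum-free medium during the 24 h. The NPs were a commercial amorphous silica made by flame synthesis. The 4 arrays that share these slides and carry cells exposed to 1.0 μg/cm2 for 24 h were used as the neighbouring dose. The labels give each of the 4 arrays of a group its own biological and its own technical replicate number. They do not settle how many cultures there were, and the protocol speaks of fewer cultures than arrays. The p-values therefore measure the spread between these arrays, which may be partly technical.

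Inhaled particles that settle on the alveolar surface first meet epithelial cells, which take them up by clathrin- and caveolin-dependent endocytosis and by macropinocytosis. At toxic doses, silica is known to disturb membranes and lysosomes, to raise oxidative stress and NRF2 target genes, and to turn on NF-kB targets such as cytokines, chemokines and the adhesion molecule ICAM1. The question at this dose was whether any of this was visible in the transcripts of cells that received very little silica.

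No transcript passed the test at 0.1 μg/cm2. Probes were tested if all arrays of 1 group or of both gave a signal well above background, and of 21697 such probes 0 (0%) were modulated, that is, had an adjusted p under 0.05 together with a change of 1.5-fold or more (limma with Benjamini-Hochberg adjustment). The smallest adjusted p was 0.0872, for CFAP251, a protein of motile cilia and sperm flagella. At an unadjusted p under 0.05, 2052 probes (9.46%) differed, 1120 higher (5.16%) and 932 lower (4.3%) in exposed cells. The t-test named in the study's methods, with the same adjustment, gave 1 modulated probe, again CFAP251, and 2164 probes at an unadjusted p under 0.05. The 4 exposed arrays all lay above the 4 controls for 835 probes (3.85%) and all below them for 765 (3.53%), together 7.37% of those tested.

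With the 8 arrays taken as independent, the 95% confidence interval of the fold change lay inside 1.5-fold in either direction for 78.8% of the probes, and the median half-width of the interval was 0.26 on the log2 scale. For the remaining 21.2% a change of 1.5-fold or more lay within the interval. The mean change itself reached 1.5-fold for 354 probes, 178 of them higher and 176 lower in exposed cells.

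The arrays of each group fell into pairs. The profiles of exposed replicates 1 and 2 correlated at r = 0.9969 and those of replicates 3 and 4 at 0.9974 (log2 signal over the tested probes), whereas r between the pairs was 0.9875 to 0.9889. Any exposed array was closer to each control array (0.9903 to 0.9948) than to the exposed arrays of the other pair. The controls split in the same manner but less, with 0.9973 and 0.9981 within and 0.9937 to 0.9947 between their pairs. Exposed replicates 3 and 4 correlated at 0.9946 to 0.9971 with replicates 3 and 4 of the 1.0 μg/cm2 cells, and each of them was closer to those arrays than to any control.

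**Figure D1:**
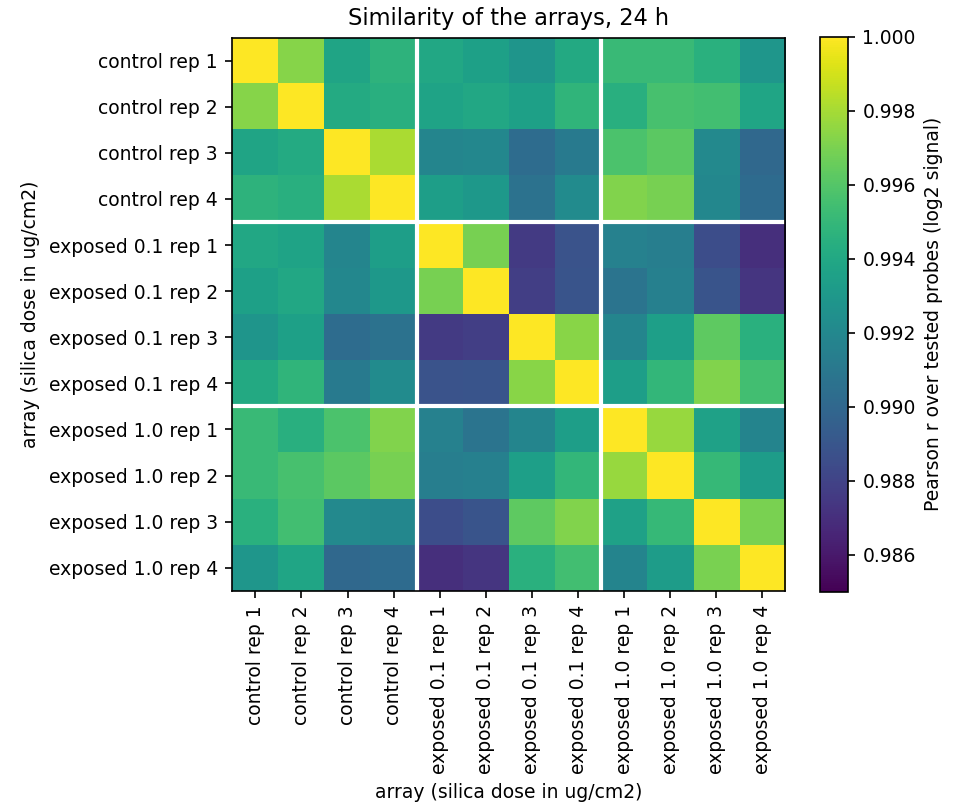
Pearson correlation of the log2 signals of all 12 arrays on these slides, over the probes tested at 0.1 μg/cm2, with both axes listing control, 0.1 and 1.0 μg/cm2 arrays by replicate (rep) and colour giving r. Each group shows a bright block for replicates 1-2 and another for replicates 3-4, and the darkest cells set exposed replicates 1-2 against replicates 3-4 of the exposed groups.

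In the cells at 0.1 μg/cm2 the pairs of arrays were farther apart than either pair was from its controls, by count of probes. Exposed replicates 3-4 differed from replicates 1-2 by at least 1.5-fold in 3274 probes, 627 higher and 2647 lower. The same count was 994 within the controls and 1223 within the cells at 1.0 μg/cm2. The change from the controls with the same replicate numbers reached 1.5-fold in 1357 probes in replicates 1-2, of which 1131 were higher, and in 2292 probes in replicates 3-4, of which 771 were higher. It did so the same way in both pairs for 64 probes and in opposite ways for 292, and 33.8% of all probes had the same sign in both. Exposed and control pairs were matched by replicate number only, and their differences between pairs correlated at -0.10 across probes. These counts, and the differences given by pair below, depend on that matching.

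The pairs were accounted for in a second fit, in which the 2 arrays of a pair were treated as correlated measurements of 1 unit (limma's duplicateCorrelation). The correlation within pairs was estimated at 0.87. With it, 0 probes were modulated, 288 (1.33%) had an unadjusted p under 0.05, and the share of probes with an interval inside 1.5-fold dropped to 56.7%. The smallest adjusted p was 1, so adjusted values from this fit are not repeated, and its 95% interval of a log2 difference is called the paired interval. The fit used 1 correlation for all probes and the degrees of freedom of single arrays. A paired interval can therefore be too narrow for a probe whose pairs disagree strongly. For ID4, split by pair, the SE was 0.33 without and 0.34 with pairs, and for CASKIN1 0.20 and 0.22.

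**Figure D2:**
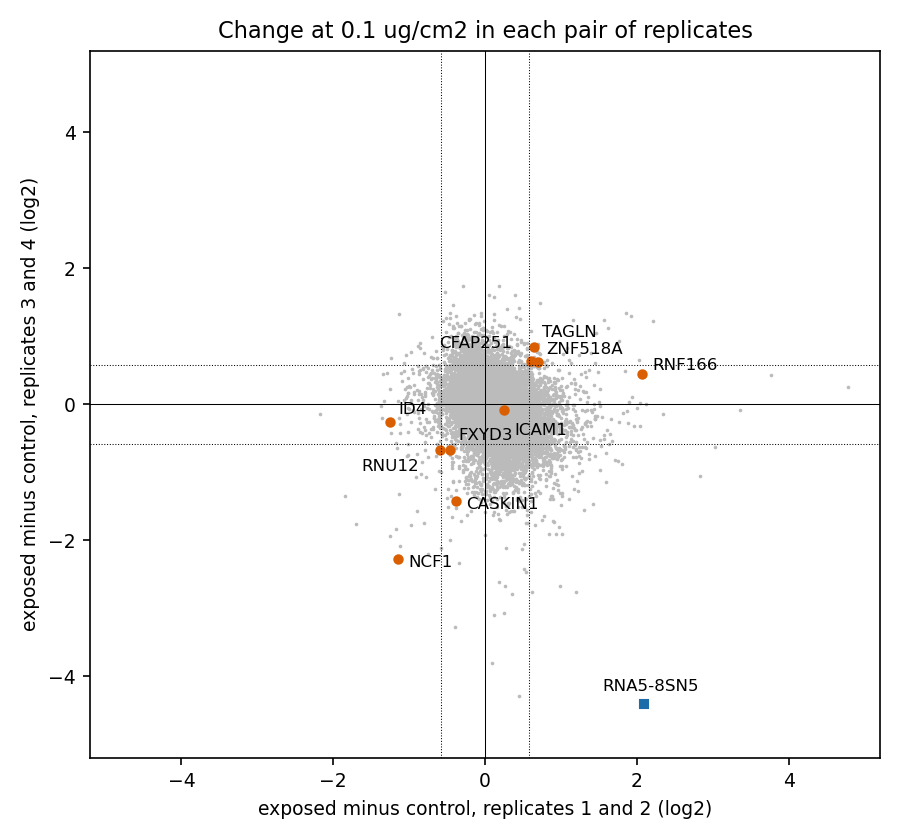
Each point is 1 of the 21697 tested probes, with the log2 difference of exposed from control means in replicates 1 and 2 on the x axis and in replicates 3 and 4 on the y axis; dotted lines mark 1.5-fold. Genes named in the text are labelled, and the 5.8S ribosomal RNA probe (RNA5-8SN5, square) lies at 2.09 and -4.41, while CFAP251, ZNF518A, TAGLN, FXYD3 and RNU12 lie near the diagonal.

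The pairs separated widely in some structured noncoding RNAs, which lack a poly(A) tail. Classes of RNA were not ranked by this split, and it was not confined to them. The protein-coding genes CTSZ and ID4, described below, were split by pair as well. The histone gene H4C16, picked out after its values were seen, read -2.99, -2.98, -6.56 and -6.36 in exposed replicates 1 to 4. Whether its transcript carries a poly(A) tail was not examined. The probe for 5.8S ribosomal RNA read 4.51 and 4.58 in exposed replicates 1 and 2 and -0.93 and -0.98 in replicates 3 and 4, on the scale used throughout, log2 signal minus the 75th percentile of the array. Its controls lay between, at 2.41, 2.49, 3.44 and 3.46. The cells at 1.0 μg/cm2 showed the same split, with 2.04 and 2.06 in replicates 1 and 2 and -0.99 and -1.04 in replicates 3 and 4. RN7SK, the RNA that holds the elongation factor P-TEFb inactive, read 4.50, 4.49, 2.62 and 2.63 in the exposed replicates 1 to 4 against 3.57, 3.73, 4.50 and 4.57 in the controls. All 7 measured members of a list of small noncoding RNAs, among them RMRP, RPPH1, RN7SL1, SCARNA2 and TERC, had a lower mean in exposed cells, with a median log2 difference of -0.37. Set against the mean of all controls, the list median was 0.26 and 0.27 in exposed replicates 1 and 2 and -1.01 in both replicates 3 and 4, so the direction rested on the second pair. The part of this split in the other results was not tested.

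RNU12 was the member of that list whose level was lower in both pairs. It encodes the U12 small nuclear RNA of the minor spliceosome, which removes a rare class of introns. The exposed arrays read -5.63, -5.82, -5.79 and -5.82 and the controls -5.04, -5.23, -5.15 and -5.12, so the groups did not overlap. The log2 difference was -0.63 (SE 0.07, 1.55-fold; adjusted p = 0.157, limma; paired interval -1.10 to -0.17). With normexp the difference was -0.31. At 1.0 μg/cm2 the values were -5.02, -5.06, -6.03 and -6.03, with replicates 1 and 2 at the upper end of the controls and replicates 3 and 4 below all exposed arrays of the lower dose. SNORA23, a guide RNA of pseudouridylation picked out after its values were seen, read -4.16, -4.26, -4.72 and -4.68 in exposed cells against -3.62, -3.63, -3.71 and -3.69 in controls (log2 difference -0.79, SE 0.13, adjusted p = 0.169).

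RNU12 is one of the transcripts that the study lists for this dose, together with ZNF518A, CFAP251, FXYD3 and PDZRN4. They were chosen on these same arrays, so their values are given as a description. ZNF518A, a zinc finger protein of the nucleus, read -1.19, -1.20, -1.37 and -1.44 in exposed cells and -1.88, -1.91, -2.02 and -2.04 in controls. The groups were well apart, with a mean difference of 0.66 (SE 0.08, 1.58-fold, adjusted p = 0.157) and a paired interval of 0.39 to 0.93. A second probe for ZNF518A gave a difference of 0.10 (SE 0.08), and its groups overlapped.

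CFAP251 had the tightest exposed values, -5.19, -5.20, -5.18 and -5.18, against -5.84, -5.75, -5.78 and -5.86 in controls. Its mean was higher by 0.62 (SE 0.06, 1.54-fold; paired interval 0.34 to 0.90), and it was dim, more than 5 log2 units below the 75th percentile on every array. With normexp background correction of the median signals its difference was 0.18 (SE 0.14), and with the uncorrected series matrix values 0.25. FXYD3, a small membrane protein that regulates the sodium pump in epithelia, was lower, at -4.23, -4.23, -4.22 and -4.35 against -3.74, -3.81, -3.54 and -3.68 (log2 difference -0.57, SE 0.08, adjusted p = 0.157, paired interval -0.95 to -0.18). PDZRN4, a putative ubiquitin ligase with PDZ domains, stood clear of background on 1 exposed and 0 control arrays, so it was left untested. Within the 3 slides the difference was 0.77, 0.59 and 0.65 for ZNF518A and 0.66, 0.56 and 0.60 for CFAP251. It was -0.52, -0.48 and -0.68 for FXYD3 and -0.56, -0.59 and -0.64 for RNU12. The groups did not overlap for these genes, so the sign within a slide was fixed in advance and only the sizes are informative. With slide as a fixed or a random block, 0 probes were modulated.

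**Figure D3:**
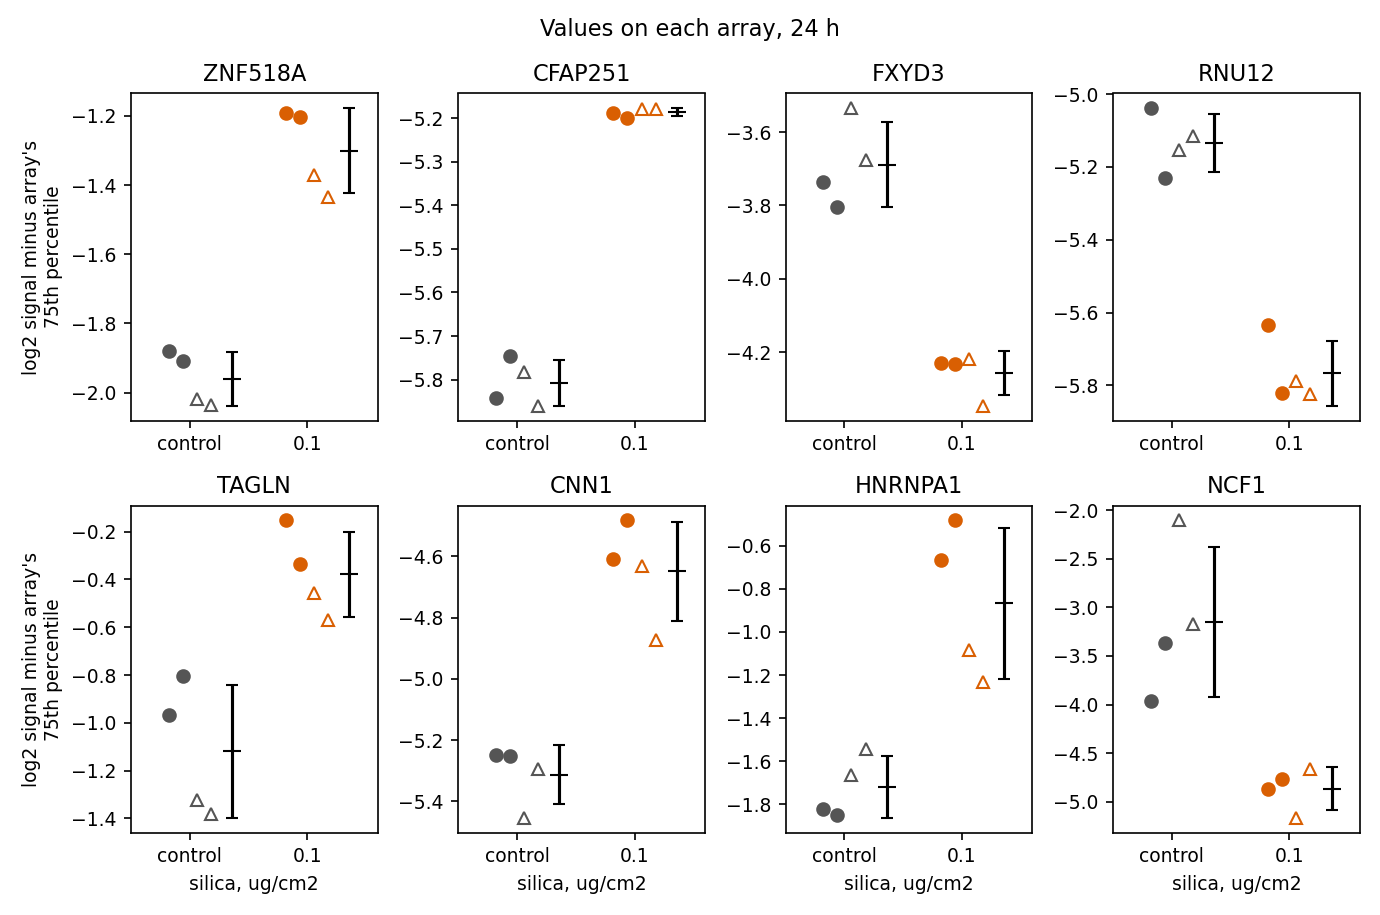
Log2 signal minus the array's 75th percentile of 8 genes on the 4 control (grey) and 4 exposed (orange) arrays; filled circles are replicates 1-2, open triangles replicates 3-4, and the bars give the mean and SD of 4 arrays. In none of the panels do the groups overlap, and the exposed values of CFAP251 span 0.02, whereas the controls of NCF1 range from -3.96 to -2.11.

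Large differences were sought only among probes well above background on all 8 arrays, without overlap between groups and with the same sign in both pairs (1316 probes). The last condition adds no check, because groups without overlap have the same sign in both pairs. Some differences outside this rule were larger, such as 1.40 for DOCK2, whose probe was well above background on 0 control arrays. The 10 genes with the highest log2 fold changes under the rule had values of 0.73 to 1.26, and the 10 with the lowest had -1.71 to -0.90. Their adjusted p was 0.216 to 0.58 and 0.205 to 0.457, so none passed the test. The rule picks genes for their size, and in 4 of the high ones 1 exposed array lay far above the other 3. RNF166, a ubiquitin ligase, was at -2.25 on exposed replicate 2 and between -5.24 and -4.74 on the other exposed arrays, with controls of -6.03 to -5.27. LPAR5, a receptor for lysophosphatidic acid, was likewise at -1.65 on exposed replicate 2, UEVLD, a ubiquitin-conjugating enzyme variant, at -2.82 on exposed replicate 3, and the zinc finger gene ZSCAN12 at -3.73 on exposed replicate 1. Without that array the log2 difference was 0.56 for RNF166, 0.48 for LPAR5, 0.50 for UEVLD and 0.52 for ZSCAN12.

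Among the other high genes, HNRNPA1, a splicing regulator, read -0.67, -0.48, -1.08 and -1.23 in exposed cells and -1.82, -1.85, -1.66 and -1.54 in controls, so that all exposed arrays were higher. The log2 difference was 0.85 (SE 0.17, adjusted p = 0.216, paired interval 0.27 to 1.43), but a second, brighter HNRNPA1 probe gave -0.04. The gene has many processed copies in the genome with which probes can share sequence. E2F7, a repressor of E2F targets in the cell cycle, differed by 0.88 (SE 0.27) and SNX10, an endosomal sorting nexin, by 0.86 (SE 0.20). Second probes, brighter for both genes, gave 0.07 for E2F7 and 0.14 for SNX10. ZSCAN12 (0.95), ARHGAP42 (0.73) and the bitter taste receptor TAS2R30 (0.73) completed the group with TAGLN, described below. With normexp the differences were smaller, at 0.57 for RNF166, 0.31 for ZSCAN12, 0.58 for LPAR5, 0.30 for E2F7, 0.50 for SNX10, 0.46 for UEVLD and ARHGAP42, and 0.20 for TAS2R30. Across the 6 high genes that had further tested probes, 6 of 7 such probes had the same sign and 2 of 7 were also without overlap.

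The low genes were led by NCF1, a subunit of the phagocyte NADPH oxidase that has near-identical pseudogenes, so its probe may read more than 1 locus. It read -4.87, -4.76, -5.17 and -4.66 in exposed cells and -3.96, -3.37, -2.11 and -3.17 in controls, a log2 difference of -1.71 (SE 0.34, adjusted p = 0.216, paired interval -3.82 to 0.40). The controls were spread widely, with replicate 3 far above the others. The same control replicate was the highest of the 4 for YJEFN3 (2.59, others -0.60 to 0.30), MOB1B, a Hippo pathway activator (2.21, others 0.08 to 1.33), TMEM151B, MEX3D, UTS2R and LINC01341. The 2 further MOB1B probes had the opposite sign, at 0.10 and 0.26. Without control replicate 3 the log2 difference was -0.92 for YJEFN3 and -1.36 for NCF1. Also low with the probes picked were TYROBP, a signalling adaptor of myeloid cells (-1.23, SE 0.28, paired interval -2.11 to -0.34), and CASKIN1, a synaptic scaffold (-0.90, SE 0.20, paired interval -1.40 to -0.41). Their differences were larger in replicates 3-4 (-1.99 and -1.42) than in replicates 1-2 (-0.46 and -0.38). The negative sign in both pairs follows from the rule that picked them. A second, brighter CASKIN1 probe gave -0.41 (SE 0.21), with 0.001 in replicates 1-2 and -0.82 in replicates 3-4, and its groups overlapped. Across the 3 low genes that had further tested probes, 2 of 4 such probes had the same sign and 0 were without overlap the same way.

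TAGLN, CNN1, MYL9 and TPM1, genes of contractile fibres, had higher means in both pairs, a set put together after the values were seen and for which no test of the set is given. TAGLN (transgelin), an actin cross-linking protein, read -0.15, -0.34, -0.46 and -0.57 in exposed cells and -0.97, -0.80, -1.32 and -1.38 in controls. The log2 difference was 0.74 (SE 0.15, 1.67-fold, adjusted p = 0.216, paired interval 0.18 to 1.30), and a second probe gave 0.70. CNN1 (calponin), which binds actin and tropomyosin, read -4.61, -4.48, -4.63 and -4.87 against -5.25, -5.25, -5.45 and -5.29 (0.66, SE 0.10, adjusted p = 0.157, paired interval 0.12 to 1.21). MYL9, a myosin regulatory light chain, was at -3.43, -3.37, -3.51 and -3.71 against -3.80, -4.11, -4.16 and -4.24 (0.57, SE 0.12, adjusted p = 0.216, paired interval -0.06 to 1.21). The groups did not overlap for any of them. Of 3 TPM1 (tropomyosin) probes, 2 did not overlap either, and the differences were 0.34, 0.36 and 0.45. Other genes of the same apparatus were near 0, with -0.02 for ACTA2, 0.00 and 0.03 for TPM2, 0.07 and 0.08 for TPM4, -0.03 for CALD1, 0.10 for ACTN1, 0.21 and -0.01 for MYLK, while CNN2 had 0.76 in replicates 1-2 and 0.05 in replicates 3-4. Within the slides the difference was 0.66, 0.57 and 0.82 for CNN1.

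Gene lists were described by the median log2 fold change of their members, with 1 probe a gene. Over 14207 genes, 48.6% were higher and 51.4% lower in exposed cells. The 18 pathway lists held 359 tested genes and their medians ran from -0.37 to 0.08. None of the 359 was modulated. At an unadjusted p under 0.05, 18 were higher and 21 lower, 10.9% in all against 8.33% of all genes, and with pairs as units 2.51% against 1.1%. In 11 of the 18 lists the median had opposite signs in the pairs of replicates. Opposite signs were common throughout, since only 33.8% of all tested probes had the same sign in both pairs. That share is of single probes, not of list medians.

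**Figure D4:**
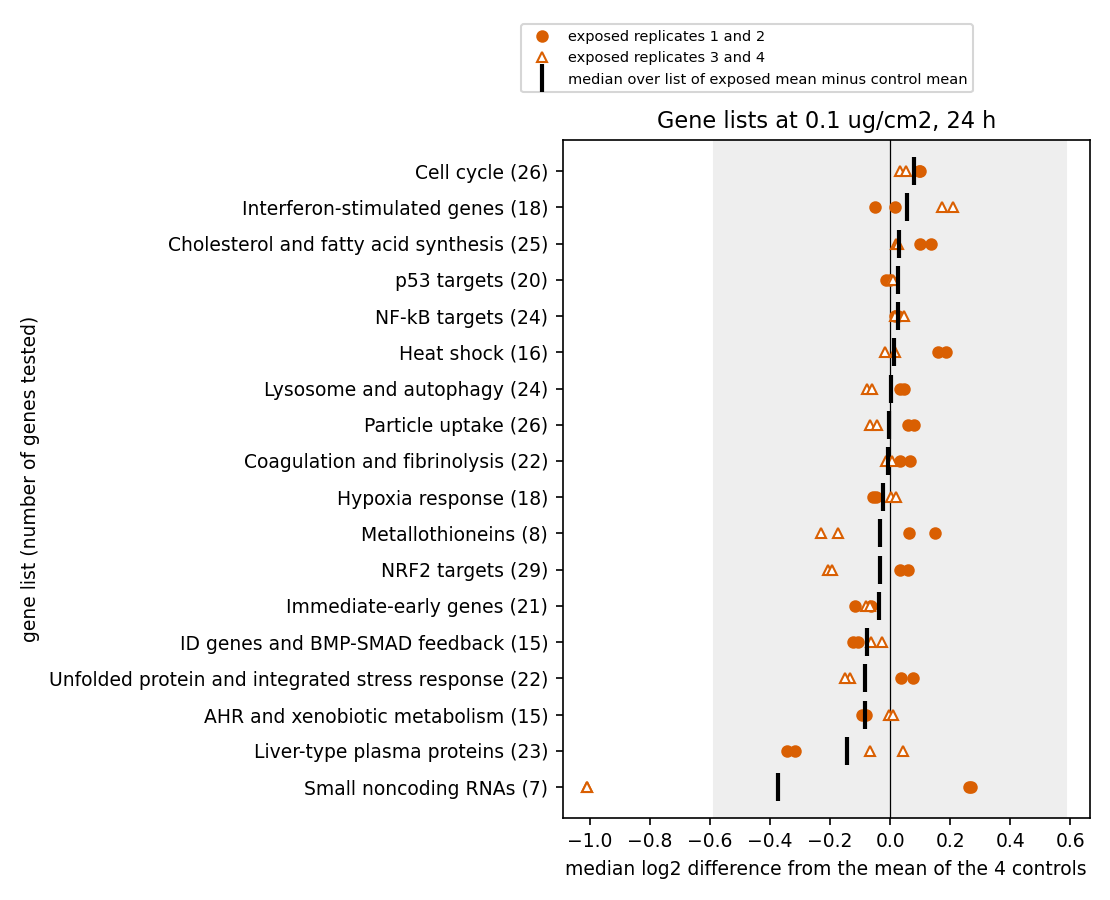
Median over each list's tested genes of the log2 difference from the mean of the 4 controls, for exposed replicates 1-2 (circles) and 3-4 (open triangles); black bars give the median of the mean difference, and the grey band marks 1.5-fold. All lists but the small noncoding RNAs stay inside the band on every array, and in several lists, such as NRF2 targets, the pairs lie on either side of 0.

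The inflammatory list showed no common shift. Of 24 tested NF-kB targets 16 were higher and 8 lower, with a median of 0.03, and 23 of the 24 intervals lay inside 1.5-fold. IL6, the pleiotropic acute phase cytokine, read -3.87, -4.02, -3.70 and -3.67 in exposed cells and -4.12, -4.19, -4.21 and -4.23 in controls. All 4 exposed arrays were above the controls, by 0.37 on average (SE 0.09, adjusted p = 0.282, paired interval -0.001 to 0.75). TNFAIP3 (A20), a feedback inhibitor of NF-kB, had a difference of -0.20 without overlap, and the neutrophil chemokine CXCL8 differed by 0.09 with an SE of 0.22. Among 18 interferon-stimulated genes, 11 were higher, with a median of 0.06. MX1, an antiviral GTPase, differed by 0.43 (SE 0.10, adjusted p = 0.277, paired interval 0.09 to 0.78), and the median was -0.06 in replicates 1-2 and 0.19 in replicates 3-4.

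NRF2 targets, metallothioneins and genes of the unfolded protein response were among the 11 of 18 lists with medians of opposite sign in the pairs. For 29 NRF2 targets the median was -0.04, with 8 higher and 21 lower. It was 0.09 in replicates 1-2 and -0.20 in replicates 3-4. HMOX1, which degrades heme, read 5.48 and 5.54 in exposed replicates 1 and 2 and 4.83 and 4.81 in replicates 3 and 4, around controls of 5.15 to 5.30. Metallothioneins and zinc transporters showed the same, with medians of 0.25 and -0.27 in the pairs and no member at an unadjusted p under 0.05. Of 22 genes of the unfolded protein and integrated stress responses 16 were lower (median -0.08). XBP1, the factor spliced by IRE1, was lower in both pairs, with 4.09, 4.09, 4.31 and 4.33 against 4.51, 4.50, 4.51 and 4.55 (log2 difference -0.31, SE 0.08, adjusted p = 0.306, paired interval -0.57 to -0.05). In the opposite direction, EDEM1, which routes misfolded glycoproteins to degradation, was higher by 0.50. Heat shock genes had a median of 0.01, which was 0.11 in replicates 1-2 and 0.06 in replicates 3-4, with DNAJB4, a co-chaperone, higher by 0.34 (SE 0.08, paired interval 0.002 to 0.68).

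The lists of uptake and degradation had medians near 0, at -0.004 for particle uptake and 0.003 for lysosome and autophagy. CTSZ, a lysosomal protease, stood out in the latter through 1 pair. It read 1.81 and 1.84 in exposed replicates 1 and 2 and -0.51 and -0.45 in replicates 3 and 4, against -0.53 to -0.32 in controls.

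The list of liver-type plasma proteins, secreted products that A549 cells also make, was among the lower ones, with 20 of 23 genes lower and a median of -0.15. At an unadjusted p under 0.05, 6 were lower and 1 higher, against 8.33% of all genes in either direction. With pairs as units 2 of the 23 had such a p, against 1.1% of all genes. CP, the copper carrier ceruloplasmin, read -2.71, -2.66, -2.04 and -2.04 in exposed cells and -1.76, -1.91, -1.74 and -1.79 in controls (-0.56, SE 0.17, adjusted p = 0.359, paired interval -1.06 to -0.07). TF, the iron carrier transferrin, had a log2 difference of -1.01 in replicates 1-2 and -0.05 in replicates 3-4, and its groups overlapped. The difference was -0.43 for TTR, a carrier of thyroxine. For SAA1, an acute phase apolipoprotein, it was 1.40 in replicates 1-2 and -0.08 in replicates 3-4. The list median was -0.37 in the first pair and -0.05 in the second. Coagulation and fibrinolysis genes had a median of -0.01, with 10 of 22 higher and 12 lower.

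Of 26 cell cycle genes, 21 were higher with a median of 0.08, which was 0.07 in replicates 1-2 and 0.08 in replicates 3-4. AURKB, a mitotic kinase, was the 1 member with an unadjusted p under 0.05 (0.34). Of 25 genes of cholesterol and fatty acid synthesis, 20 were higher with a median of 0.03. HMGCS1, the HMG-CoA synthase of the sterol pathway, differed by 0.29 without overlap. The remaining medians were -0.08 for AHR and xenobiotic metabolism, 0.03 for p53 targets, -0.02 for the hypoxia response and -0.04 for immediate-early genes. In the last of these FOSB, a subunit of AP-1, had a difference of -0.95 in replicates 1-2 and -0.09 in replicates 3-4.

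The defining markers of the labelled cell type were mixed. All 9 genes of the epithelial list (keratins, EPCAM, CLDN4 and CDH1, together with CDH2 and VIM, which mesenchymal cells also express) were well above background on the 8 arrays, and their summed level was 449 to 710 in exposed and 559 to 599 in control arrays, in units of the array's 75th percentile. Of 8 alveolar type II markers, 5 were well above background on all arrays, and SFTPB, a surfactant protein, on none. Markers of other cell types were well above background on all 8 arrays for 4 of 8 leukocyte, 3 of 7 fibroblast and 1 of 5 endothelial genes. Of the endothelial markers KDR, TEK and ERG were on none, of the leukocyte markers CD163, and of the fibroblast markers DCN and PDGFRB. The summed fibroblast markers ranged from 0.675 to 0.738 in exposed and from 0.643 to 0.652 in control arrays, without overlap, whereas the summed leukocyte markers overlapped (0.600 to 0.658 and 0.628 to 0.662). Their part in the results was not tested.

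Some transcripts were near the limit of detection in 1 group. Well above background on all 4 exposed and on no control array were 9 of 34127 probes, and 0 had the reverse pattern. The 9 were picked for a signal on the exposed arrays only, so their direction follows from the choice and no minimum fold change is given. UTRN (utrophin), which links actin to the membrane, had measured means of -5.48 in exposed and -6.68 in control arrays (adjusted p = 0.369). The means were -5.89 and -6.92 for ARMH4, and -5.90 and -6.65 for ZEB2, a repressor of epithelial genes (adjusted p = 0.404 and 0.46). For the 1 probe without a gene name they were -5.34 and -7.43. All 9 levels were low, between -6.44 and -5.34.

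Against the same controls, the next dose had 2 modulated probes of 21079 tested, ICAM1 and ID4. With pairs as units 0 were modulated there, with paired intervals of 0.61 to 1.07 for ICAM1 and -1.49 to -0.91 for ID4 (adjusted p = 0.244 and 0.166 in that fit). ICAM1, the endothelial and epithelial ligand of leukocyte integrins, read -6.02, -5.92, -6.22 and -6.11 at 0.1 μg/cm2 and -6.27, -6.18, -6.09 and -6.06 in controls, 1 of which was not well above background. The groups overlapped, and the log2 difference was 0.08 (95% interval -0.11 to 0.28; adjusted p = 0.803). At 1.0 μg/cm2 it read -5.29, -5.27, -5.31 and -5.36, above every other array. The direct difference between the doses, 0.76 (SE 0.08, 95% interval 0.58 to 0.93), had an adjusted p of 0.0248 in limma, and of 1 with pairs as units.

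ID4, an inhibitor of basic helix-loop-helix factors and a target of BMP signalling, was split by pair at 0.1 μg/cm2. Exposed replicates 1 and 2 read -5.09 and -5.15, and replicates 3 and 4 read -3.84 and -3.83. The controls were at -3.88, -3.85, -3.57 and -3.57, and the 1.0 μg/cm2 arrays between -4.98 and -4.86. Thus the first pair lay below the values of the higher dose and the second next to the controls. The mean difference from controls was -0.76 (SE 0.33, adjusted p = 0.522, paired interval -1.54 to 0.02), and the doses differed by -0.44 (95% interval -1.18 to 0.30; adjusted p = 0.605). Of 15 tested ID and BMP-SMAD genes 9 were lower (median -0.08). ID2, another inhibitor of this family, was lower in both pairs, with 2.47, 2.49, 2.54 and 2.56 against 2.84, 2.75, 2.78 and 2.75 (-0.27, SE 0.06, adjusted p = 0.252, paired interval -0.53 to -0.004), and GREM1, a secreted BMP antagonist, was higher by 0.46 without overlap.

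The promoters of ICAM1 and ID4 are shown because these genes were the modulated ones at the next dose. The 250 bases before the start are from RefSeq (GRCh38.p14), and capitals mark 2 motifs that were searched on both strands without overlap between them, the NF-kB-type site GGAAATTCC and the TATA-type TATAAA.
ICAM1, chr19:10270870-10271119, + strand: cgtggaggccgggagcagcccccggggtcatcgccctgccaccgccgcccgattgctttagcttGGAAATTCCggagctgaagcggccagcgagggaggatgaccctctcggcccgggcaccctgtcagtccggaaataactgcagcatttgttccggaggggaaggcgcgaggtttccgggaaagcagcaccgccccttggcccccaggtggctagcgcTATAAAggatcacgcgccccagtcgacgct
ID4, chr6:19837120-19837369, + strand: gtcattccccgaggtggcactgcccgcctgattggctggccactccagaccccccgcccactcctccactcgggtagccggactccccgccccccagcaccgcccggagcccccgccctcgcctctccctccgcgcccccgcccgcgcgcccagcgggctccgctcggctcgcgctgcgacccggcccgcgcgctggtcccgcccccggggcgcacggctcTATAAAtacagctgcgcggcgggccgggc
The first motif began 186 bases before the start of ICAM1 and was found in 0.413% of 35116 promoters of this length, and was not among these letters for ID4. TATAAA began 30 bases before the start of ICAM1 and 29 before that of ID4, and was found in 10.7% of promoters.

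**Figure D5:**
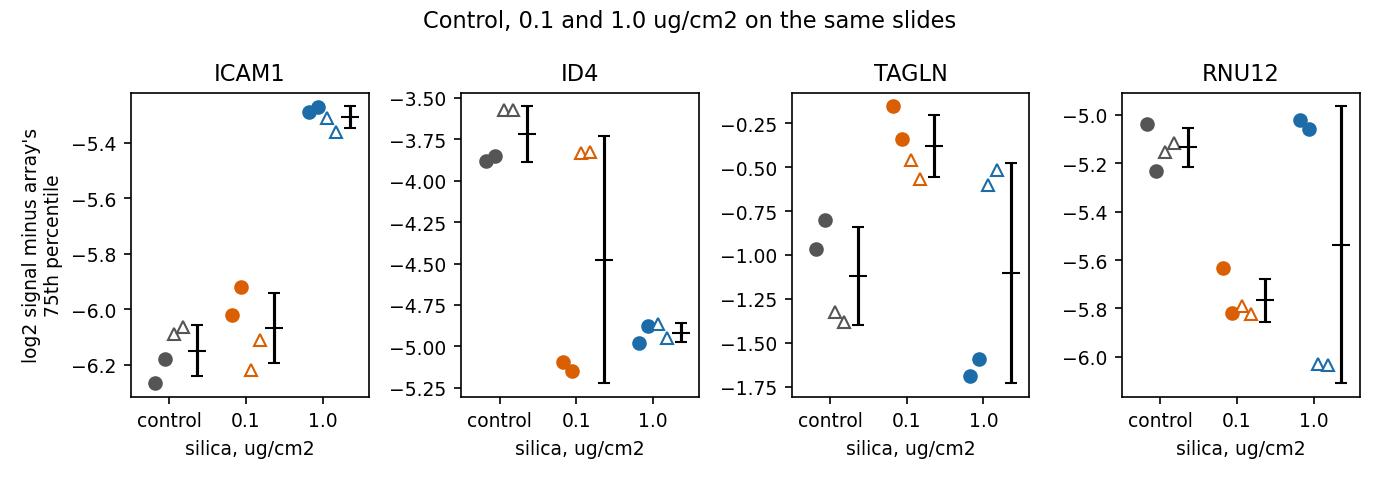
Log2 signal minus the array's 75th percentile of ICAM1, ID4, TAGLN and RNU12 on the 4 control, 4 exposed (0.1 μg/cm2) and 4 higher-dose (1.0 μg/cm2) arrays; filled circles are replicates 1-2, open triangles replicates 3-4, bars the mean and SD of 4 arrays. ICAM1 separates the doses with all 4 arrays, whereas ID4 at 0.1 and TAGLN and RNU12 at 1.0 μg/cm2 fall into 2 pairs.

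Between the doses, 11 of 21663 probes (0.0508%) were modulated, 9 higher and 2 lower at 1.0 than at 0.1 μg/cm2. Besides ICAM1, those with a gene name were C1RL-AS1, CCDC78, LINC00173, NCF1 and ATF3. ATF3, a stress-induced factor of the ATF family, was at -1.10, -1.07, -1.20 and -1.19 at 0.1 and at -1.72, -1.80, -1.86 and -1.93 at 1.0 μg/cm2 (log2 difference -0.68, adjusted p = 0.0248). That probe differed by 0.01 between 0.1 μg/cm2 and controls, against -0.24 for the brighter ATF3 probe used in the list. Its controls lay on both sides, at -0.68 and -0.54 in replicates 1 and 2 and -1.70 and -1.71 in replicates 3 and 4. C1RL-AS1, an antisense RNA, had a difference of -0.52 at 0.1 from controls and of 0.79 at 1.0 from 0.1 μg/cm2. With pairs as units 0 probes were modulated, with an unadjusted p under 0.05 for all 11. Leaving out any 1 array left 0 to 2 modulated probes, and normexp background correction left 0.

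Contractile genes were not called between the doses. TAGLN read -1.69, -1.60, -0.60 and -0.52 at 1.0 μg/cm2, the first pair below and the second above all controls. For CNN1, with -5.93, -5.63, -5.31 and -5.47 at 1.0 μg/cm2, the dose difference was -0.94 (95% interval -1.26 to -0.61; adjusted p = 0.0902). The 2 contrasts share the controls or the exposed arrays, so these values are set side by side only.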

How the data were processed

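Gene expression was measured with Agilent Human V2 4x44K arrays. Scanner output was deposited for every array, made by the authors with Feature Extraction 10.10.1.1, in which the processed signal is an intensity corrected for background and spatial trend but not normalized between arrays. The deposited median intensities, also given as a series matrix, are uncorrected, and other deposited marks flag outlier spots and spots well above background. Values are log2 of the processed signal minus each array's 75th percentile. That percentile was 1386 to 3214 in exposed and 1849 to 2107 in control arrays. Control and outlier spots were left out (0.651% of spots on the 8 arrays), spots of a probe averaged, and no spot was saturated. On the arrays used, 62.3% to 71.5% of probes stood clear of background, and the number of arrays limits the precision.

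Groups were compared in R 4.3.3 with limma 3.58.1 (lmFit, eBayes) and Benjamini-Hochberg adjustment. The study's methods give an unpaired t-test, its correction and the threshold of 1.5-fold, and this test was run as an alternative on all 4 arrays a group, whereas the methods describe fewer arrays a group, so the inputs differ. Pairs entered as a random block (statmod 1.5.0). Replicate numbers do not pair exposed with control arrays: same-numbered arrays' deviations correlated at -0.09 to 0.00. Alternatives are other background corrections, normalizations, filters, blocks and the omission of each array. Normexp used the median signals. The scripts were tested on simulated data. 25715 of 34127 probes got a RefSeq gene symbol by accession, and a gene was represented by its brightest probe. Another 25 columns of the series matrix were not used.

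Named genes are those the study lists for this dose, those called at 1.0 μg/cm2, the 10 highest and 10 lowest genes described in the text, and high and low members of each list. Members and lists were chosen with earlier results of these data known. Some items are not reported here. Figures were drawn with matplotlib.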

Additional observations from a re-analysis of the deposited data

Results flagged for a closer look

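In 4 of 58 groups of 4 arrays checked, 1 array lay far from the other 3 of its group, with a gap over Dixon's 95% critical value for the share of the range. Chance flags about 1 group in 20 if arrays are independent and genes are not chosen on their values. Neither holds here, since arrays came in pairs and RNF166, LPAR5 and UEVLD were picked for a high exposed mean. The 4 flagged were all exposed groups: FXYD3 (gap 0.895 of the range, replicate 4 at -4.35), RNF166 (0.833, replicate 2 at -2.25), LPAR5 (0.948, replicate 2 at -1.65) and UEVLD (0.926, replicate 3 at -2.82).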

How the results depend on the processing

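No modulated transcript at 0.1 μg/cm2 was found in 19 of 26 alternatives. The exceptions were 1 with the methods' t-test, 141 with that test unadjusted, 2 with all 12 arrays in 1 fit (ZNF518A and BRWD1), 40 with pairs as a fixed block, 856 in replicates 1-2 alone, 2029 in replicates 3-4 alone, and 0 to 1 without 1 array each. The fits within 1 pair take the spread from 2 arrays that may share a culture. The fixed block assumes that a pair means the same in both groups, while the pair differences of exposed and control cells correlated at -0.10 across probes. Probes at an unadjusted p under 0.05 (2052) numbered 1247 with normexp, 288 with pairs as a random block, 3459 as a fixed block, 306 with pair means, 9147 in replicates 1-2, 12983 in replicates 3-4, 1324 with slide as a fixed block (2032 as a random block), and 1319 to 2389 without 1 array each, the lowest without control replicate 4 (1319) and 3 (1324). The share of intervals inside 1.5-fold was 50.6% without a filter, 48.2% with pair means and 70.3% to 76.8% without 1 array each. Non-overlapping probes numbered 1869 to 2589 without 1 array each, the highest without control replicate 2. The replicate block gave 0 modulated probes at 0.1 μg/cm2, 2178 at an unadjusted p under 0.05 and 1 between the doses.

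The 11 probes between the doses became 0 with normexp, without a filter, with slide as a fixed block and with pairs as a random block, 4 with quantile normalization, 118 with pairs as a fixed block, and 0 to 2 without 1 array each, 0 without any of the arrays at 1.0 μg/cm2 and 2 without exposed replicate 4. The causes were not tested. ICAM1 turned its sign at 0.1 μg/cm2 with normexp (-0.0378), in replicates 3-4 (-0.0863) and with the series matrix values (-0.0325), and the other 25 named genes tested kept theirs. The size fell by over 1.5 times in 13 of the 26 genes with normexp and in 8 with the series matrix values. Of 597 gene values, 41 passed the adjusted threshold, all of them in the fit of all 12 arrays, the fixed block or 1 pair alone. Dim probes, with small signal over background, limit what could be seen.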

Other observations

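Values that fitted no comparison concerned single arrays. DESI1 read -8.72 on exposed replicate 3 and -1.26 to -1.07 on the other exposed arrays, and CYP26A1 read -7.82 there and -2.70 to -2.54 on the others. CLIC4 behaved alike with 1 of its 3 probes, at -6.18 on exposed replicate 3, while its other 2 probes read 0.26 and -1.03 there. These were chosen after their values were seen.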
